A study of Mus musculus with 12 samples.

Results

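The cytokines of effector B cells are described here as 10 genes: Il4, Il6, Il10, Il12a, Ifng, Tnf, Lta, Ltb, Tgfb1 and Csf2. They were taken by name, as every probe set whose single gene symbol is 1 of them, which gave 11 probe sets for 10 genes out of 34945 such probe sets for 18193 genes. Tgfb1 had a pair of probe sets and each other gene had 1. The study put RNA of flow-sorted mouse B cells on 12 Affymetrix arrays, 3 in each of 4 groups. Old ABC are age-associated B cells from the spleen, old B1 cells came from the peritoneal cavity and old FO are follicular B cells from the spleen, all of mice older than 15 months. Young B1 cells came from the peritoneal cavity of mice of 8 weeks. All groups were female C57BL/6 mice with no transgene or treatment named, and the cells went from the sorter to RNA isolation without culture. The labels call the B1 cells B1 in the cell type field and B1a in the titles. They name no surface marker of the sort and do not say whether the 3 arrays of a group are separate mice, pools or repeated sorts. ABC and FO came from the spleen and B1 from the peritoneal cavity, so that cell type and tissue cannot be told apart where B1 cells are compared with them.

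Cytokines are secreted or membrane-held proteins by which cells instruct each other. B cells that have met antigen or microbial products can secrete them as well as antibodies, and sets of such effector B cells are described by what they make: interferon gamma, IL-12 and TNF in some, IL-4 and IL-6 in others, and IL-10 or TGF-beta in those that restrain other immune cells. Lymphotoxin and TNF from B cells also maintain the follicles of spleen and lymph node, and a GM-CSF-producing cell is known among mouse B1a cells. Most of these genes are strongly induced only after stimulation, and the arrays report RNA of cells that were not stimulated in culture, not secreted protein.

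Lta, Tnf and Ltb are neighbours on mouse chromosome 17, in the order Ltb, Tnf, Lta between Lst1 and Nfkbil1 in the RefSeq annotation. Their promoters are shown because the 3 genes move differently across the groups, and that of Il6 because Il6 gave the largest difference between old ABC and old FO cells among the 10 genes. Each is the stretch from 250 bases before to 50 bases after the start, from RefSeq on GRCm38.p6, which held promoters of 9 of the 10 genes. The positions are chr17:35194257-35194556 (plus strand) for Ltb, chr17:35201958-35202257 (minus strand) for Tnf, chr17:35205302-35205601 (minus strand) for Lta and chr5:30012864-30013163 (plus strand) for Il6. Capitals mark the NF-kappaB consensus of 10 bases in Ltb and Il6 and the letters TATAAA in Tnf and Lta.
Ltb: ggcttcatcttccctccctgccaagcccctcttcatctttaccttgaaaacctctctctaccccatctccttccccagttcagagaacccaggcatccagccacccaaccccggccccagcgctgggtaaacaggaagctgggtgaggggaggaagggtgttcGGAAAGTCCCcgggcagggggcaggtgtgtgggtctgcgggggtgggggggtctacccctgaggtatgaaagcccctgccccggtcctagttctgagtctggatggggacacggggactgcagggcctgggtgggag
Tnf: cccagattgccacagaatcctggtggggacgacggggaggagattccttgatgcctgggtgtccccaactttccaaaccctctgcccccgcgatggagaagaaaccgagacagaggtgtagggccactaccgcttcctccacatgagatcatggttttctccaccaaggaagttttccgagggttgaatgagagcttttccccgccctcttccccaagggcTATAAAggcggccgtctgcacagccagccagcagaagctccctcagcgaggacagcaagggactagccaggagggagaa
Lta: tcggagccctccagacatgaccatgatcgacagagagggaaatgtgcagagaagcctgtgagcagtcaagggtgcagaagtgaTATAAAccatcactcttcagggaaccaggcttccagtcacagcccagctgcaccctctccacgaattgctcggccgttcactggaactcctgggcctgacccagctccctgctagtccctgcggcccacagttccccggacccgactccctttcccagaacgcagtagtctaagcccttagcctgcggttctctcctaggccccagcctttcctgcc
Il6: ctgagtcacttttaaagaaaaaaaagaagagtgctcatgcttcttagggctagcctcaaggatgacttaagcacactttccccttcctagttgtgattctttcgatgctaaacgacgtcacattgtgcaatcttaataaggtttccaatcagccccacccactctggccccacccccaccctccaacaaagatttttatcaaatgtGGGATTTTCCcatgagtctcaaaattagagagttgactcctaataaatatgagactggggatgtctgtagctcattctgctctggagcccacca
The motifs were searched on both strands, and in the 4 sequences shown they do not overlap each other. The NF-kappaB consensus began 44 bases before the start of Il6, 87 before that of Ltb, where it is read on the opposite strand, and 140 before that of Tgfb1. TATAAA began 29 bases before the start of Tnf, 30 before that of Ifng and 167 before that of Lta. Of 32851 promoters of the same length, 8.46% held the NF-kappaB consensus and 13.6% held TATAAA, against 3 of the 11 cytokine promoters for either. TCACACC, the core letters bound by T-box factors, was in none of those 11 and in 3.98% of all promoters. A match is a description of letters, not of a bound site.

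Arrays were unequal in their upper intensities and in the weight that limma gave them. Median intensities lay between 44.0 and 49.2 on the 12 arrays, but old B1 replicate 3 had a 75th percentile of 346 and old FO replicate 2 one of 378, where the other arrays had 400.1 to 412. Limma gave these arrays the weights 0.102 and 0.349, the lowest of the 12. A cytokine difference whose call or direction changed, or whose log2 size moved by over 1.5 times, when either was left out is given with and without it, apart from Il4 and Csf2. The labelled cell types were checked by the summed intensity of marker genes. The 3 ABC markers (Tbx21, Itgax, Itgam) summed to 5644 to 9692 in old ABC, 152 to 335 in old B1, 177 to 202 in young B1 and 408 to 472 in old FO cells. The 3 follicular markers (Fcer2a, Cr2, Vpreb3) summed to 1249 to 2551 in old ABC, 137 to 555 in old B1, 796 to 1006 in young B1 and 11620 to 12770 in old FO cells. The 5 B1 markers gave 5988 to 6516 in old ABC, 5262 to 6957 in old B1, 5910 to 6843 in young B1 and 556 to 936 in old FO cells. The sums thus set B1 apart from FO but not from ABC. Single B1 markers moved in opposite directions in old ABC against old B1, on the log2 scale. Sox5 differed by -1.82 (limma, adjusted p = 5.48e-04) and Spn by 1.53 (adjusted p = 0.0105). Zbtb32 differed by -0.93 (adjusted p = 0.0673), Cd5 by -0.70 (0.348) and Bhlhe41 by -0.16 (0.743). Sums over 7 measured B cell genes lay between 42350 and 50590 on all 12 arrays, and 1 of those genes, Pax5, lay under the array's median on each old B1 array.

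Markers of other cells were present too, as the plot of marker sums shows. The 10 neutrophil markers summed to 20830 to 35340 in old ABC, 232 to 476 in old B1, 399 to 1552 in young B1 and 475 to 10040 in old FO cells, where replicate 3 holds the highest value. The 13 macrophage markers summed to 12710 to 14770 in old ABC, 10210 to 20970 in old B1, 11830 to 18250 in young B1 and 1019 to 2295 in old FO cells. The 10 measured T cell markers gave 11120 to 12350 in old ABC, 10660 to 13280 in old B1, 11150 to 11590 in young B1 and 7860 to 9773 in old FO cells. Cd2, which B cells of mice also express, made up 69.3% to 93.9% of these T cell sums, so they say little of T cells. The 9 other T cell markers summed to 3064 to 3635 in old ABC, 645.8 to 3512 in old B1, 1642 to 2197 in young B1 and 1264 to 2627 in old FO cells. For the 7 measured NK cell markers the sums were 1621 to 3488 in old ABC, 393 to 2077 in old B1, 928 to 1214 in young B1 and 919 to 1467 in old FO cells. The sum of the 9 mast cell markers, though not each marker, was highest in B1 cells. It was 522 to 1375 in old ABC, 2098 to 5101 in old B1, 2368 to 10280 in young B1 and 238 to 260 in old FO cells. Old B1 replicate 3 was the lowest of its group in the T, NK, macrophage, neutrophil, mast and dendritic cell sums. No marker was at 0 on any array, and Ncr1, an NK cell receptor, lay under the array's median on all 12. The part of these cells in the cytokine results was not tested. In RNA of a whole sorted sample, fewer cells of a type and less RNA per cell cannot be told apart.

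**Figure D1:**
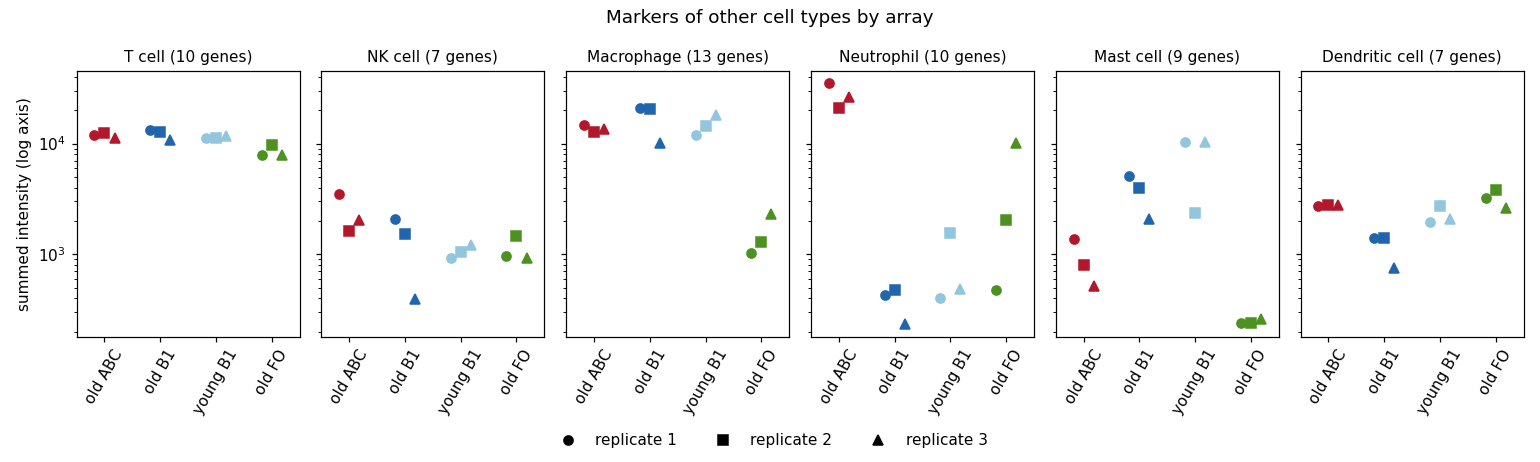
Summed intensity of the marker genes of 6 other cell types on each array, on a log axis, with a panel for each cell type, the 4 groups side by side and a point for each array. The neutrophil sums of old ABC lie between 20830 and 35340, above every other array, and the macrophage sums of old FO lie between 1019 and 2295, below every other array; the T cell sum is mostly Cd2 (69.3% to 93.9%).

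A gene was called near background in a group when its probe set lay under the array's own median of all probe sets on all 3 arrays. Il4 and Csf2 were near background in all 4 groups. Il6 was near background in old B1, young B1 and old FO cells but not in old ABC, and Ifng in old B1 and young B1 cells. The other 6 genes were near background in no group, for Tgfb1 by the brighter of its probe sets. That made 13 gene and group pairs, and fold changes that rest on such a level are not exact sizes. A stricter mark, the 90th percentile of 74 probe sets for 38 genes of other tissues such as liver or lens, added Ifng in old FO and Lta in old B1 cells and gave 15 pairs. This mark differed between arrays: it was 7.06, 7.02 and 6.05 on old B1 replicates 1, 2 and 3 and 6.03 to 6.07 on the old ABC arrays. With the 25th percentile of the array in place of its median there were 7.

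**Figure D2:**
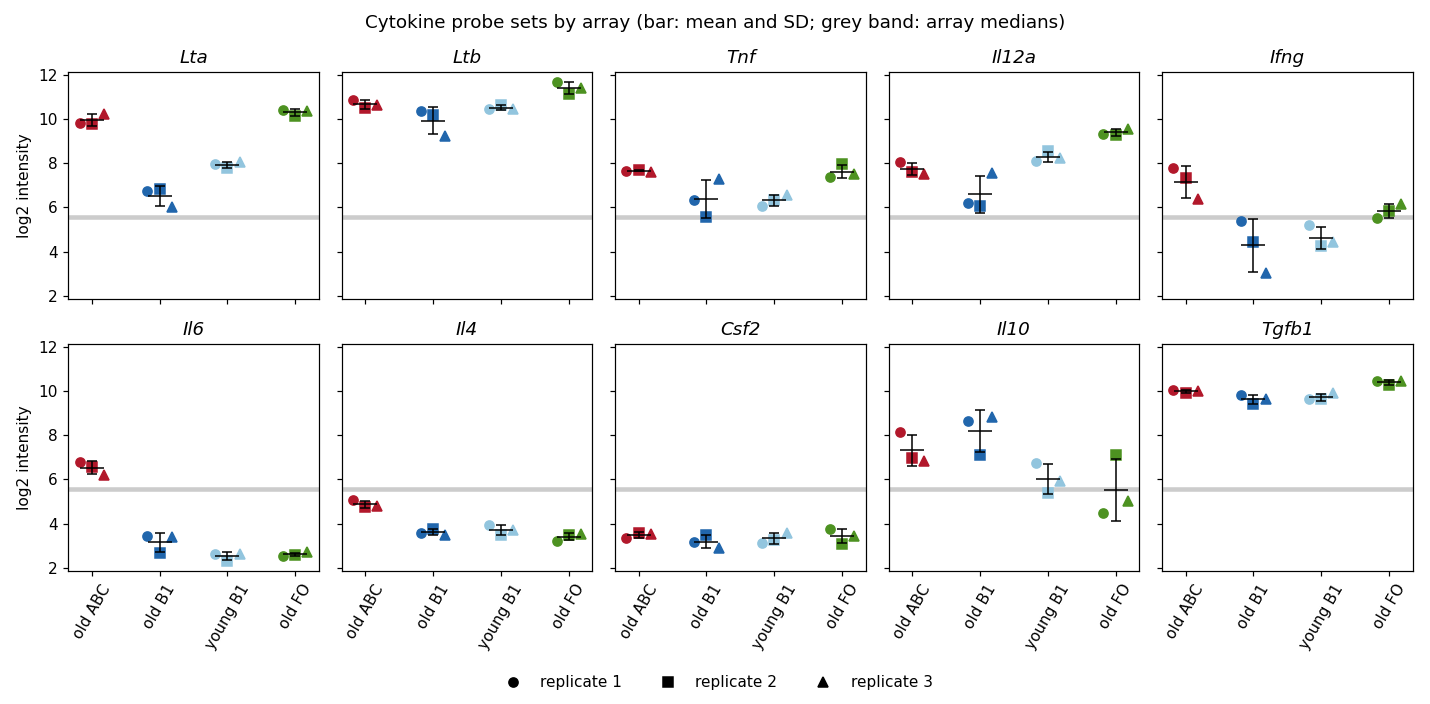
Log2 intensity of the 10 cytokine genes on each array, 1 panel a gene, with points for arrays, bars for the group mean and SD and a grey band for the array medians that mark background. Il6 stands above the mark only in old ABC, and Lta is above it in every group.

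The 4 comparisons come from 1 limma fit of all 18193 genes over the 12 arrays, and they share arrays, so their results are not independent. What a gene read is its log2 intensity on replicates 1, 2 and 3 of a group. Differences are on the log2 scale, ± is the standard error of the fit, n is 3 arrays a group and a gene was called at an adjusted p under 0.05. Old ABC against old FO cells compares age-associated B cells with the resting majority of splenic B cells. Here 3 of 10 cytokine genes were called: Il6 and Il4 were higher and Il12a was lower in ABC. Over all genes 9.96% were called, 7.12% higher and 2.84% lower. Groups did not overlap for 6 of 10, against 28.8% of all genes, and the median difference of the 10 was 0.04, against -0.03 over all genes.

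Old ABC against old B1 cells sets a pair of non-follicular B cells of one age against each other. Il4, Il6, Ifng, Tnf and Lta were called, all 5 higher in ABC, where 12.8% of all genes were called, 7.40% higher and 5.43% lower. Groups did not overlap for 7 of 10, all higher in ABC, against 17.0% of all genes that were higher without overlap. The median difference of the 10 was 1.21, against 0.02 over all genes. In old B1 against old FO cells 6 of 10 were called, Il10 higher and Il12a, Tnf, Lta, Ltb and Tgfb1 lower in B1, where 16.4% of all genes were called, 8.40% higher and 8.02% lower. Groups did not overlap for 6 of 10, all lower in B1, against 16.6% of all genes, and the medians were -1.0 for the 10 and -0.04 for all genes.

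Old against young B1 cells asks what differs with age within a labelled cell type. Lta, lower in old cells, was the only 1 of the 10 called, where 0.291% of all genes were called. Groups did not overlap for 5 of 10, 2 higher and 3 lower in old cells, against 13.9% of all genes (6.14% higher, 7.75% lower). The medians were -0.13 for the 10 and -0.01 for all genes. Of the 15 called differences in the 4 comparisons, 10 kept their call and direction under every alternative that tested them. The exceptions are Tnf in old ABC against old B1 and in old B1 against old FO, Il10 in old B1 against old FO, Lta in old against young B1 and Ifng in old ABC against old B1. Among the 10, the Il4 differences were not tested with dim genes left out.

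**Figure D3:**
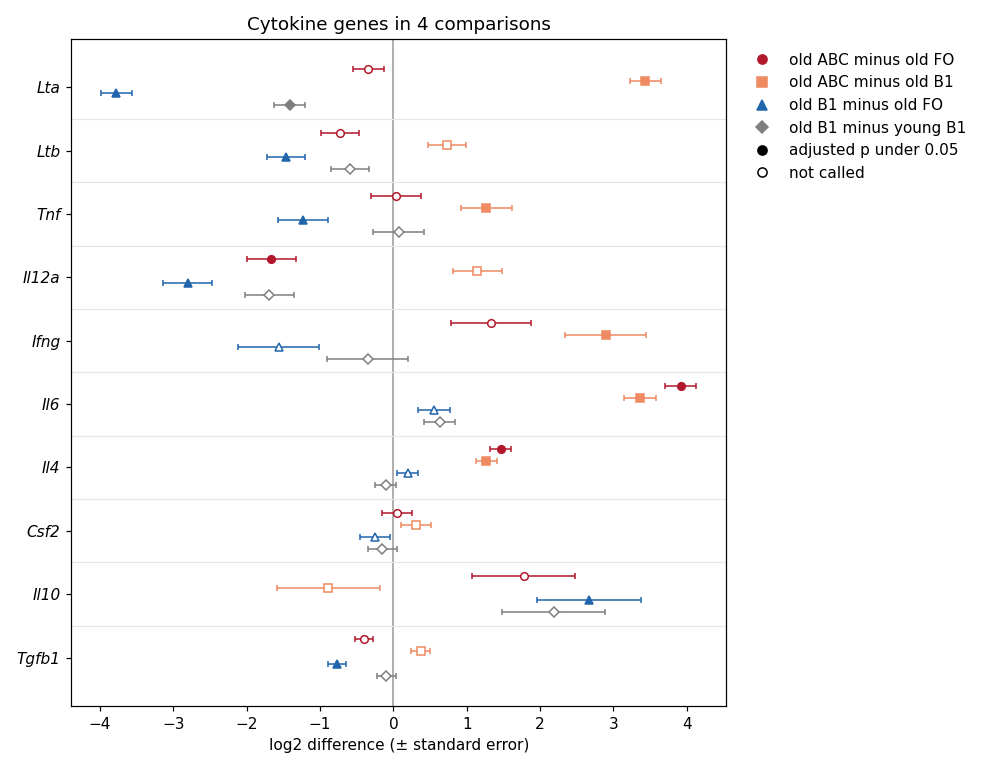
Log2 difference of each cytokine gene in the 4 comparisons, as the first named group minus the second, with the fit's standard error as the bar and filled points for an adjusted p under 0.05. Il6 in old ABC against old FO (3.92) and Lta in old B1 against old FO (-3.78) lie farthest to the right and left.

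Lta, Tnf and Ltb encode the tumour necrosis factor family members of the chromosome 17 cluster. Lymphotoxin alpha, the product of Lta, acts alone through the TNF receptors or joins lymphotoxin beta on the cell surface to act through the lymphotoxin beta receptor. Lta read 9.83, 9.79 and 10.25 in old ABC, 6.72, 6.83 and 6.01 in old B1, 7.97, 7.79 and 8.06 in young B1 and 10.42, 10.14 and 10.34 in old FO cells. Both spleen groups were high and overlapped, young B1 lay between and old B1 was lowest, with no array of a B1 group reaching any spleen array. In rank, between 83.9% and 87.5% of probe sets lay below it on the old ABC arrays, 55.8% to 60.7% on old B1, 68.3% to 70.3% on young B1 and 86.7% to 88.5% on old FO arrays.

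In old B1, Lta fell by 3.78 ± 0.21 against old FO cells (adjusted p = 1.4e-06), which is 13.7-fold lower. Old ABC were higher than old B1 cells by 3.43 ± 0.21 (10.8-fold, adjusted p = 4.9e-06). Both sizes rest on an old B1 level under the stricter mark of background. On old B1 replicates 1 and 2 that mark was higher than on any array of another group. Between old ABC and old FO cells the difference was -0.34 ± 0.21 (95% interval -0.81 to 0.12, adjusted p = 0.436). With age, Lta fell by 1.42 ± 0.21 in old against young B1 cells (adjusted p = 0.0238), or 2.67-fold. The old and young arrays did not overlap, and Lta was number 34 of 18193 genes by p. Without old B1 replicate 3, the lowest array, the difference was -1.16 (adjusted p = 0.00804). The call was lost without young B1 replicate 1 (adjusted p = 0.118), replicate 2 (0.0738) or replicate 3 (0.148), without old FO replicate 3 (0.0502), and in a fit of the B1 arrays alone (0.223). The sums of the 3 follicular markers did not overlap either, at 137 to 555 in old B1 and 796 to 1006 in young B1. None of these markers was called between old and young B1, and their relation to the Lta difference was not tested.

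TNF, a main inflammatory cytokine, is released from the cell membrane and acts through the TNF receptors. Tnf read 7.67, 7.68 and 7.62 in old ABC, 6.33, 5.57 and 7.27 in old B1, 6.08, 6.32 and 6.56 in young B1 and 7.37, 7.97 and 7.53 in old FO cells. The spleen groups overlapped and lay above every B1 array, while old B1 arrays spread over both sides of young B1, from replicate 2 to replicate 3. Tnf was higher in old ABC than in old B1 cells by 1.27 ± 0.34 (2.41-fold, adjusted p = 0.035). In old B1 it fell by 1.23 ± 0.34 against old FO cells (2.35-fold, adjusted p = 0.0336). The spleen groups differed by 0.04 ± 0.34 (95% interval -0.73 to 0.80, adjusted p = 0.978, and 0.21 without old FO replicate 2), and old and young B1 cells by 0.07 ± 0.34 (95% interval -0.69 to 0.84, adjusted p = 0.961). Without old B1 replicate 3 the difference of old and young B1 was -0.37 (adjusted p = 0.904).

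Both Tnf calls depended on single arrays and on the processing. With cyclic loess the adjusted p was 0.121 in old ABC against old B1 and 0.141 in old B1 against old FO, and with the compared groups fitted alone it was 0.161 in old ABC against old B1 and 0.177 in old B1 against old FO. Centring on the array median gave 0.0527 in old ABC against old B1. Without old B1 replicate 3 the difference of old ABC and old B1 was 1.71 (adjusted p = 7.75e-04) and that of old B1 and old FO was -1.67 (adjusted p = 5.95e-04). Without old B1 replicate 2 they were 0.86 (adjusted p = 0.0755) and -0.82 (adjusted p = 0.0743), and without replicate 1 they were 1.24 (0.0805) and -1.20 (0.0801). The call in old ABC against old B1 was also lost without old ABC replicate 1 (adjusted p = 0.0933), 2 (0.102) or 3 (0.0846), without young B1 replicate 1 (0.0503), 2 (0.0553) or 3 (0.0506) and without old FO replicate 3 (0.0536). The call in old B1 against old FO was also lost without old FO replicate 1 (0.0579), 2 (0.0983) or 3 (0.0784), old ABC replicate 1 (0.0511) or 3 (0.0502) and young B1 replicate 2 (0.0517).

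Lymphotoxin beta, the product of Ltb, anchors lymphotoxin alpha in the membrane. Ltb read 10.87, 10.50 and 10.62 in old ABC, 10.37, 10.17 and 9.25 in old B1, 10.45, 10.65 and 10.45 in young B1 and 11.66, 11.11 and 11.40 in old FO cells. Every array was well above its median, with 80.8% to 95.9% of probe sets below Ltb. Old FO was highest and old B1 replicate 3 lowest. In old B1 it fell by 1.47 ± 0.26 against old FO cells (2.76-fold, adjusted p = 0.00301). The other differences were not called: -0.73 ± 0.26 in old ABC against old FO (adjusted p = 0.123), 0.74 ± 0.26 in old ABC against old B1 (0.0974) and -0.59 ± 0.26 in old against young B1 (0.654), each without overlap. Leaving out old B1 replicate 3 made the standard error 0.15, and old ABC against old FO was called at the same difference of -0.73 (adjusted p = 0.00797). Old ABC against old B1 was 0.40 (adjusted p = 0.174) without old B1 replicate 3 and was called without old B1 replicate 1 (0.95, adjusted p = 0.0426). Old against young B1 was -0.25 (adjusted p = 0.936) without old B1 replicate 3.

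Il12a and Ifng belong to the axis in which IL-12 drives interferon gamma. Il12a encodes the alpha chain that IL-12 shares with IL-35, and its partner in IL-12 is the product of Il12b. Il12a read 8.05, 7.63 and 7.52 in old ABC, 6.18, 6.05 and 7.54 in old B1, 8.09, 8.53 and 8.23 in young B1 and 9.35, 9.28 and 9.56 in old FO cells. Old FO was highest without overlap with any other group, and old B1 replicate 3 lay apart from its group, at the level of the lowest ABC arrays. In old ABC, Il12a fell by 1.66 ± 0.34 against old FO cells (3.17-fold, adjusted p = 0.00973). In old B1 it fell by 2.81 ± 0.34 against old FO cells (7.0-fold, adjusted p = 2.45e-04). Il12b lay under the array's median on 11 of 12 arrays and was called in none of the 4 comparisons.

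The remaining Il12a differences turned on old B1 replicate 3. With all arrays, old ABC exceeded old B1 by 1.14 ± 0.34 and lay just past the threshold, with an adjusted p that rounds to 0.05. Without that array the difference was 1.62 (adjusted p = 1.98e-04). Old against young B1 cells differed by -1.69 ± 0.34 (95% interval -2.44 to -0.95, adjusted p = 0.0987), with no overlap. Without that array the difference was -2.17 (adjusted p = 7.35e-04), which would be a second called gene with age.

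Interferon gamma, the product of Ifng, activates macrophages and directs antibody class switching, and B cells with T-bet can make it. Ifng read 7.80, 7.34 and 6.38 in old ABC, 5.41, 4.42 and 3.02 in old B1, 5.21, 4.26 and 4.44 in young B1 and 5.53, 5.84 and 6.16 in old FO cells. Old ABC arrays were the highest 3 of the 12, though their own range was wide, and both B1 groups were near background. Old ABC were higher than old B1 cells by 2.89 ± 0.55 (7.42-fold, adjusted p = 0.00594). Without old B1 replicate 3, the lowest array, the difference was 2.26 (adjusted p = 0.00571), and the call was lost in a fit of the 6 arrays of these groups alone (adjusted p = 0.0673). Old ABC against old FO gave 1.33 ± 0.55 (95% interval 0.11 to 2.55, adjusted p = 0.198) with no overlap, called without old B1 replicate 3 (adjusted p = 0.0461).

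In old B1 against old FO cells Ifng differed by -1.56 ± 0.55 (adjusted p = 0.0844). This was called without old B1 replicate 1 (-2.13, adjusted p = 0.0195) and was -0.93 (adjusted p = 0.189) without replicate 3. Old against young B1 cells gave -0.35 ± 0.55 (adjusted p = 0.86), and 0.28, not called, without old B1 replicate 3. T and NK cells are the main makers of interferon gamma. Cd3e, which encodes a chain of the T cell receptor complex, read 9.11, 8.96 and 9.01 in old ABC, 9.23, 8.68 and 6.12 in old B1, 7.93, 7.64 and 8.42 in young B1 and 8.07, 9.27 and 8.86 in old FO cells. Within old B1, replicate 3 was lowest and replicate 1 highest in both Cd3e and Ifng. In each other group the 3 arrays fell in a different order for Cd3e than for Ifng. Cd3e was not called in old ABC against old FO (0.29, limma adjusted p = 0.889) or against old B1 (1.02, 0.369). In old ABC against old B1, 1 of 10 T cell markers and 3 of 7 NK cell markers were called higher, and in old ABC against old FO 2 of 10 and 2 of 7. The T cell markers called against old FO were Cd3g and Cd2, and B cells of mice also express Cd2. Of all genes, 7.40% were called higher in old ABC against old B1 and 7.12% in old ABC against old FO. In old B1 against old FO the share was 8.40%. These shares stand beside the later marker counts too. The part of T and NK cells in the Ifng values was not tested.

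IL-6 supports plasma cells and follicular helper T cells and drives inflammation. Il6 read 6.79, 6.56 and 6.20 in old ABC, 3.42, 2.65 and 3.39 in old B1, 2.61, 2.32 and 2.64 in young B1 and 2.55, 2.56 and 2.69 in old FO cells. The 3 old ABC arrays stood far above the other 9, where Il6 was near background. Even in old ABC only 55.0% to 60.3% of probe sets lay below it. Il6 was higher in old ABC than in old FO cells by 3.92 ± 0.21 (15.1-fold, 95% interval of the log2 difference 3.44 to 4.39, adjusted p = 3.4e-06) and than in old B1 cells by 3.36 ± 0.21 (10.3-fold, adjusted p = 5.9e-06). Both calls held under every alternative, but the sizes are set against levels near background.

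Among groups near background, Il6 differed by 0.55 ± 0.21 in old B1 against old FO (adjusted p = 0.114) and by 0.63 ± 0.21 in old against young B1 (adjusted p = 0.473). The first was called without old B1 replicate 2 (0.80, adjusted p = 0.0126). Macrophages and neutrophils can also make IL-6. The macrophage sum of old B1 (10210 to 20970) reached above that of old ABC (12710 to 14770) while Il6 was near background in old B1. Lyz2 made up 48.9% to 55.8% of the old B1 sum and 24.9% to 37% of the old ABC sum. The 12 other macrophage markers summed to 5215 to 9376 in old B1 and 8728 to 9547 in old ABC, with overlap. In old ABC against old B1, 1 of 13 macrophage markers was called higher, Adgre1 at 2.16. Another 2 were called lower, Vsig4 at -5.09 and Cd68 at -1.48, where 5.43% of all genes were called lower. In old ABC against old FO the macrophage sum moved with Il6, at 12710 to 14770 in old ABC and 1019 to 2295 in old FO cells, and 8 of 13 macrophage markers were called higher. Neutrophil markers moved with Il6, with 6 of 10 called higher in old ABC against old FO and 8 of 10 in old ABC against old B1. Old FO replicate 3, with a neutrophil sum of 10040, read 2.69 for Il6, against 2.55 and 2.56 on the other FO arrays. The part of neutrophils and macrophages in the old ABC level was not tested.

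IL-4 drives switching to IgG1 and IgE, and its best known makers are T helper cells, basophils and mast cells. Il4 read 5.05, 4.77 and 4.79 in old ABC, 3.59, 3.74 and 3.47 in old B1, 3.91, 3.49 and 3.72 in young B1 and 3.22, 3.5 and 3.51 in old FO cells. It was higher in old ABC than in old FO cells by 1.46 ± 0.14 (2.76-fold, adjusted p = 9.8e-05) and than in old B1 cells by 1.27 ± 0.14 (2.41-fold, adjusted p = 2.5e-04). Every array lay under its own median, so a difference was measured but presence of Il4 RNA was not shown. The mast cell sum was lower in old ABC (522 to 1375) than in old B1 (2098 to 5101), opposite to Il4. There 4 of 9 mast cell markers were called lower, Cma1, Mcpt4, Tpsb2 and Cpa3, against 5.43% of all genes. The other 5 were not called, among them Fcer1a (0.10) and Ms4a2 (-0.05). Against old FO (238 to 260) the mast cell sum was higher in old ABC, as Il4 was, and 3 of 9 mast cell markers were called higher. These were Fcer1a, Ms4a2 and Cpa3. The neutrophil sum was also highest in old ABC, and the part of these cells was not tested. Old B1 against old FO differed by 0.20 ± 0.14 (adjusted p = 0.428), and old against young B1 by -0.10 ± 0.14 (adjusted p = 0.834).

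GM-CSF, the product of Csf2, promotes growth and activation of myeloid cells. Csf2 read 3.34, 3.58 and 3.54 in old ABC, 3.16, 3.5 and 2.89 in old B1, 3.13, 3.28 and 3.59 in young B1 and 3.76, 3.10 and 3.45 in old FO cells. All 4 groups overlapped near background and none of the comparisons was called. The difference of old ABC and old FO was 0.05 ± 0.20 (95% interval -0.40 to 0.50, adjusted p = 0.946) and that of old ABC and old B1 was 0.30 ± 0.20 (adjusted p = 0.389). Old B1 and old FO differed by -0.26 ± 0.20 (adjusted p = 0.468), and the difference of old B1 and young B1 was -0.15 ± 0.20 (adjusted p = 0.833).

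Il10 and Tgfb1 are the genes of cytokines that restrain immune responses. B1 cells are a known source of IL-10. Il10 read 8.12, 6.98 and 6.82 in old ABC, 8.66, 7.12 and 8.82 in old B1, 6.73, 5.38 and 5.92 in young B1 and 4.47, 7.12 and 5.01 in old FO cells. Old B1 had the highest mean, but old FO replicate 2 stood above its group at 7.12, the reading of the lowest old B1 array. Group SDs ran up to 1.40 in old FO, the widest of the 10 genes. In old B1, Il10 was higher than in old FO cells by 2.67 ± 0.70 (6.35-fold, adjusted p = 0.0257).

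Markers of other peritoneal cells moved with Il10 in this comparison. The macrophage sum was 10210 to 20970 in old B1 and 1019 to 2295 in old FO cells, with 12 of 13 markers called higher, and 6 of 9 mast cell markers were called higher. Within old B1 the order differed: replicate 3 had the lowest macrophage and mast cell sums but the highest Il10 (8.82, against 8.66 and 7.12). The part of these cells in the Il10 difference was not tested.

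That Il10 call depended on single arrays, and with the compared groups fitted alone the adjusted p was 0.117. Without old FO replicate 2 the difference was 3.46 (adjusted p = 0.00398). It was no longer called without old FO replicate 1 (2.14, adjusted p = 0.104) or 3 (2.40, 0.0962), or without old B1 replicate 1 (2.44, 0.0763) or 3 (2.36, 0.0587). Old ABC and old FO differed by 1.78 ± 0.70 (95% interval 0.22 to 3.34, adjusted p = 0.174), which was called without old FO replicate 2 (2.57, adjusted p = 0.0271). Old against young B1 cells gave 2.19 ± 0.70 (95% interval 0.63 to 3.75, adjusted p = 0.418), with no overlap of arrays. Old ABC against old B1 gave -0.89 ± 0.70 (95% interval -2.45 to 0.67, adjusted p = 0.469), with overlap, and -0.58 (adjusted p = 0.740) without old B1 replicate 3.

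TGF-beta 1, the product of Tgfb1, is secreted in a latent form that other proteins must open, and it directs switching to IgA. Tgfb1 read 10.05, 9.90 and 10.01 in old ABC, 9.83, 9.41 and 9.62 in old B1, 9.63, 9.63 and 9.90 in young B1 and 10.46, 10.26 and 10.44 in old FO cells. It was well above the array's median on every array, and the groups differed little. In old B1 it fell by 0.77 ± 0.13 against old FO cells (1.71-fold, adjusted p = 0.00217). Old ABC against old FO gave -0.40 ± 0.13 (adjusted p = 0.0865) and old ABC against old B1 0.37 ± 0.13 (adjusted p = 0.0947), called without old B1 replicate 1 (0.47, adjusted p = 0.0466). Old and young B1 cells differed by -0.10 ± 0.13 (95% interval -0.39 to 0.19, adjusted p = 0.822).

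The other Tgfb1 probe set was much dimmer and read 5.22, 5.22 and 5.81 in old ABC, 5.07, 5.54 and 5.21 in old B1, 5.65, 5.49 and 5.29 in young B1 and 6.35, 5.62 and 6.61 in old FO cells. With all probe sets tested together 1 comparison was called for it, in which old B1 fell by 0.92 ± 0.26 against old FO cells (adjusted p = 0.0373), in the direction of the bright one. The dim probe set was near background in old B1 cells, so that size is not exact. No probe set of a gene can be ranked against another by intensity.

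Receptors of the 10 cytokines were measured for all 16 genes of the list. The shares to set beside the counts of this and the following lists are 9.96% of all genes called in old ABC against old FO, 12.8% in old ABC against old B1 and 16.4% in old B1 against old FO. The comparison of old ABC and old FO had 3 that rose, 1 that fell and 12 that were not called, with a median difference of 0.02. For old ABC against old B1 4 rose, 3 fell and 9 were not called, and in old B1 against old FO 5 rose, 4 fell and 7 were not called. Limma called 0 of the 16 in old against young B1 cells, where 3 had an unadjusted p under 0.05.

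Il6st encodes gp130, the shared signalling chain of the IL-6 receptor. Il6st read 8.91, 7.84 and 8.28 in old ABC, 12.44, 12.44 and 12.57 in old B1, 12.12, 12.30 and 12.18 in young B1 and 8.53, 8.72 and 8.37 in old FO cells. All B1 arrays were above all spleen arrays. The difference was -4.14 ± 0.22 in old ABC against old B1 (adjusted p = 1.8e-06) and 3.94 ± 0.22 in old B1 against old FO (adjusted p = 1.4e-06). Il6ra, the ligand-binding chain, fell by 1.87 ± 0.23 in old ABC against old B1 (adjusted p = 3.8e-04). Tnfrsf1b, the TNF receptor of lymphocytes, read 9.89, 10.20 and 10.21 in old ABC, 10.05, 9.96 and 9.86 in old B1, 9.80, 9.88 and 9.93 in young B1 and 8.96, 9.05 and 8.96 in old FO cells.

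Tnfrsf1b was thus higher by 1.11 ± 0.11 in old ABC (adjusted p = 1.1e-04) and by 0.96 ± 0.11 in old B1 (adjusted p = 1.7e-04), each against old FO. Tnfrsf1a, the other TNF receptor, rose by 1.73 ± 0.42 (adjusted p = 0.0251) and Il4ra, the IL-4 receptor chain, fell by 0.54 ± 0.13 (adjusted p = 0.0215) in old ABC against old FO. Tnfrsf1a was near background in old FO cells. Ifngr2, a chain of the interferon gamma receptor, rose by 1.11 ± 0.12 in old ABC against old B1 (adjusted p = 2.1e-04) and fell by 1.30 ± 0.12 in old B1 against old FO (adjusted p = 4.6e-05). Ltbr, the receptor of lymphotoxin beta, was called in none of the 4 comparisons.

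**Figure D4:**
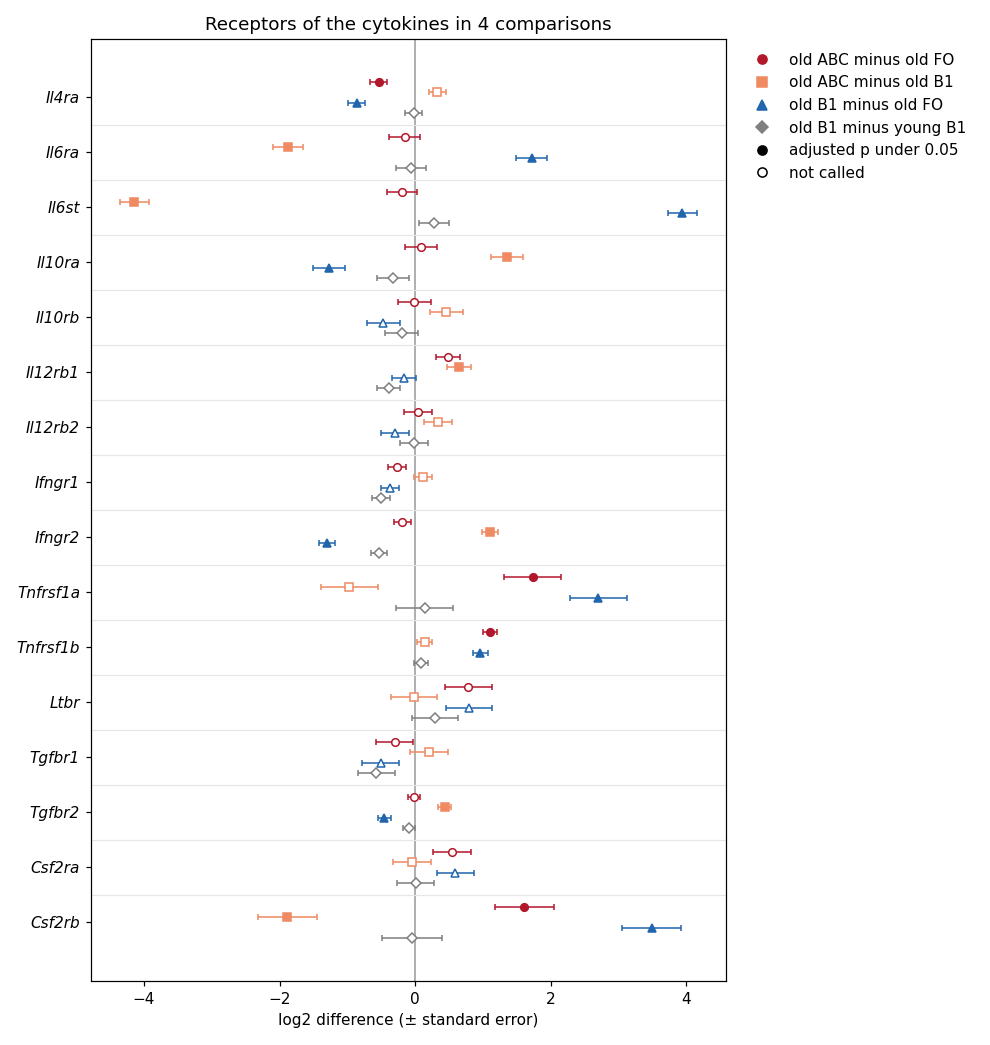
Log2 differences of the cytokine receptor genes in the 4 comparisons, the first named group minus the second, with the standard error as the bar and filled points for those called. Il6st lies at -4.14 in old ABC against old B1 and at 3.94 in old B1 against old FO.

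Of 35 other cytokine genes 32 were measured. When old ABC was set against old FO 5 rose and none fell, led by Il15, a cytokine for NK and memory T cells (1.90 ± 0.25, adjusted p = 6.6e-04), Il1a (0.63 ± 0.14, 0.0147) and Cd70 (1.79 ± 0.39, 0.0147). Il1a was near background in all 4 groups and Cd70 in old FO cells, so that the rise of Il1a is a difference between dim readings. For old ABC against old B1 6 rose and 6 fell, with Tgfb3 at 4.12 ± 0.26 (adjusted p = 5.9e-06), Tgfb2 at -5.08 ± 0.53 (1.5e-04) and Tnfsf8 at -2.52 ± 0.35 (9.7e-04). Tgfb3 was near background in old B1 cells, and Tgfb2 and Tnfsf8 in old ABC. In old B1 against old FO 7 rose and 4 fell. Tgfb3 fell by 3.65 ± 0.26 (adjusted p = 7.6e-06) there, while Il15 (2.76 ± 0.25, 3.6e-05) and Il18 (2.40 ± 0.28, 1.9e-04) rose. Tgfb2 and Tgfb3 thus took opposite sides. Tgfb1 moved in the direction of Tgfb3 with smaller differences, called only in old B1 against old FO. Tgfb2 read 3.96, 2.86 and 3.37 in old ABC, 9.12, 8.83 and 7.48 in old B1, 7.78, 7.62 and 8.72 in young B1 and 3.41, 5.09 and 4.33 in old FO cells.

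Tgfb3 read 7.12, 7.59 and 7.38 in old ABC, 3.44, 3.44 and 2.86 in old B1, 2.96, 3.66 and 2.86 in young B1 and 7.29, 6.53 and 6.87 in old FO cells. The spleen arrays were high and all B1 arrays low. Ebi3, which pairs with the Il12a product in IL-35 and was chosen after its values were seen, read 10.48, 9.37 and 10.07 in old ABC, 12.01, 11.82 and 12.39 in old B1, 11.61, 11.57 and 11.64 in young B1 and 9.20, 10.26 and 9.55 in old FO cells. Every B1 array was above every spleen array. Old B1 exceeded old FO by 2.40 ± 0.31 (adjusted p = 3.9e-04), and old ABC against old B1 gave -2.10 ± 0.31 (adjusted p = 0.00125). Limma called 0 of the 32 in old against young B1 cells, where 6 had an unadjusted p under 0.05.

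Of 25 genes of transcription factors that act on cytokine genes 23 were measured. Against old FO, old ABC had 5 that rose and 2 that fell, in old ABC against old B1 8 rose and none fell, and in old B1 against old FO 3 rose and 8 fell. Tbx21, which encodes T-bet, a factor that turns on Ifng in T cells, was highest in old ABC, by 3.16 ± 0.25 over old FO (adjusted p = 2.7e-05) and by 5.44 ± 0.25 over old B1 (9.5e-07). In old B1 it fell by 2.27 ± 0.25 against old FO (adjusted p = 1.4e-04). Nfil3 rose by 2.57 ± 0.17 in old ABC (adjusted p = 9.8e-06) and by 2.22 ± 0.17 in old B1 (1.4e-05), each against old FO. Batf rose by 0.89 ± 0.16 in old ABC against old FO (adjusted p = 0.00428).

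Bhlhe40 rose by 3.61 ± 0.51 in old ABC against old B1 (adjusted p = 0.00103) and Runx3 by 2.71 ± 0.45 (0.00272). Rel, an NF-kappaB subunit of activated lymphocytes, fell by 1.47 ± 0.15 in old B1 against old FO (adjusted p = 1.0e-04). With age in B1 cells limma called 0 of the 23, and 4 had an unadjusted p under 0.05.

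Proteins that release or hold the cytokines were measured for 14 of 16 genes. Compared with old FO, old ABC had 1 that rose and 1 that fell, namely Itgb1, an integrin chain (3.35 ± 0.19, adjusted p = 4.3e-06), and Rhbdf2, a partner of the protease that frees TNF (-1.18 ± 0.33, 0.0481). These 2 of 14 are near the 9.96% of all genes called. For old ABC against old B1 2 rose and 3 fell, with Ltbp1, a binding protein of latent TGF-beta, at -4.01 ± 0.75 (adjusted p = 0.00514), Itgb3 at 3.14 ± 0.62 (0.00709) and Thbs1, near background in old ABC, at -2.74 ± 0.64 (0.0169). In old B1 against old FO 3 rose and 4 fell, led by Itgb1 (3.19 ± 0.19, 2.3e-06), Ltbp1 (5.41 ± 0.75, 6.2e-04) and Itgb3 (-4.41 ± 0.62, 6.9e-04). Limma called 0 of the 14 in old against young B1 cells, where 1 had an unadjusted p under 0.05.

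Surface genes used to find IL-10-making B cells were measured for 9 of 10. Set against old FO, old ABC had 5 that rose and none that fell, with Cd9 at 2.46 ± 0.23 (adjusted p = 7.9e-05), Nt5e at 4.46 ± 0.45 (1.3e-04) and Cd44 at 1.35 ± 0.20 (0.00158). In old B1 against old FO, where Il10 was called higher, 5 rose and 1 fell: Cd9 differed by 3.40 ± 0.23 (adjusted p = 5.2e-06), Cd44 by 1.81 ± 0.20 (1.5e-04) and Cd1d1 by -1.78 ± 0.33 (0.00366). For old ABC against old B1 4 rose and 2 fell, among them Havcr1 (4.69 ± 0.60, 5.5e-04), Nt5e (2.14 ± 0.45, 0.0105) and Cd24a (-0.80 ± 0.15, 0.00622). Limma called 0 of the 9 in old against young B1 cells, and 0 had an unadjusted p under 0.05.

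Genes whose level followed a cytokine gene most closely over the 12 arrays were named by Pearson's r among the 9096 or 9097 other genes with at least the median mean level. This is a description, since all arrays fall into 4 groups and share their array-wide properties. For Lta these were Ms4a4c (r = 0.990), Pag1 (0.989) and Ccr6 (0.985), and for Ltb Pds5b (0.986), Rbm38 (0.981) and Cyp27a1 (0.975). For Tnf they were Trib2 (0.972), Rhobtb2 (0.961) and Pld3 (0.954). Il6 was followed most closely by Sec24d (0.983), Glipr1 (0.980) and Tnfsf13b (0.977), the last being the gene of the B cell survival factor BAFF. Ifng had Wbp1, Asrgl1 and Rgs1, all at 0.946, and Il12a had Ppp5c (0.928), Fchsd2 (0.926) and Grpel2 (0.912). Il10, with the widest spread within groups, had Gstt1 (0.922), Rac2 (0.878) and Cd2bp2 (0.872). Tgfb1 had Dusp6 (0.951), Usp18 (0.945) and Smchd1 (0.940).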

How the data were processed

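Per the labels, biotin-labelled cRNA of flow-sorted cells was hybridised to 12 arrays. The authors deposited linear-scale intensity values, 1 per probe set and array. The submitters' processing notes name RMA and affy; versions, order and any background correction were not given in the sources used here. From 45037 probe sets, those with 1 symbol in GEO's platform annotation were kept (932 had several, 9160 none). Each gene took its probe set with the highest mean. No dim probe set was filtered out and 0 columns were left unused.

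The log2 values of all 18193 genes were fitted with limma 3.58.1 in R 4.3.3 (4 group means, 8 residual degrees of freedom, Benjamini-Hochberg adjustment). Adjusted p values are limma's. They measure only the spread between these samples, which may be technical, and the number of arrays limits the precision. The procedure was tested on simulated data in which the spread of a gene was the same on every array. That test did not cover arrays of unequal weight. Figures used matplotlib 3.10.9 in Python 3.11.15.

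The 10 genes, the lists and the alternatives were chosen with earlier results of these data known. Besides the 10, a list's called genes with the lowest p were named, up to 3 a comparison, and the 3 genes most like each of 8 of the 10. Alternatives were limma with trend and robust, weighted arrays, a fit of each pair of groups alone, a replicate block, median centring, cyclic loess, leaving dim genes out, 3 other uses of the probe sets, a threshold of 0.01, a pseudocount of 16 and each array left out in turn. Leaving out both arrays that stand apart, and the 75th percentile as a covariate, were chosen after seeing the data.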

Additional observations from a re-analysis of the deposited data

How the results depend on the processing

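No direction of a called difference was reversed under any alternative. In old ABC against old FO 3 cytokine genes were called, 8 with array weights, 5 without the 2 arrays that stand apart, 5 with the 75th percentile as a covariate and 3 to 5 when arrays were left out in turn. In old ABC against old B1 5 were called, 3 with the 2 groups alone and 4 to 6 with arrays left out. In old B1 against old FO 6 were called, and 4 to 6 with arrays left out. In old against young B1 1 was called, 2 with array weights, without the 2 arrays or with the covariate, 0 with the 2 groups alone or at an adjusted p under 0.01 (limma, with 4 and 5 at an unadjusted p under 0.05), and 0 to 2 with arrays left out. The 13 gene and group pairs near background were 7 with the 25th percentile as the mark and 15 with the other-tissue mark.

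Arrays with the same replicate number in the titles were not more alike than others. Over 18 same-numbered pairs the correlation of deviations from the group means ran from -0.391 to 0.228, and 3 exceeded 0.1. Over 36 pairs of different number it ran from -0.388 to 0.435, and 8 exceeded 0.1. Deviations from means of 3 arrays cannot exclude that arrays of the same number were handled together. With the replicate number as a block 3 cytokine genes were called in old ABC against old FO, 4 in old ABC against old B1, 5 in old B1 against old FO and 0 in old against young B1, where 5 had an unadjusted p under 0.05 (limma). The calls lost were Tnf in old ABC against old B1 (adjusted p = 0.0517), Il10 in old B1 against old FO (0.0549) and Lta in old against young B1 (0.0922). Over all genes the counts ran from 990 to 3961 in old ABC against old FO, from 1062 to 3694 in old ABC against old B1, from 1455 to 5001 in old B1 against old FO and from 2 to 316 in old against young B1. With dim genes left out Il4 and Csf2 were not tested. Sizes that rest on a group near background are not exact.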
